A study of Mus musculus with 7 samples.

Results

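Bhlhe40 and Bhlhe41 encode the DEC repressors of the circadian clock, and both were read out in injured mouse sensory ganglia at a pair of clock times. They were chosen by gene name and make up 2 of the 54309 genes in the deposited table. The choice was made with their expression in these samples known, so their levels and differences are given as a description, without a test. The samples were lumbar dorsal root ganglia, which hold the cell bodies of sensory neurons, from C57bl/6 mice labelled male and 6 to 8 weeks old. In the ZT20 group (4 samples) the sciatic nerve was injured at Zeitgeber time 20, and in the ZT8 group (3 samples) at Zeitgeber time 8, counted in hours from lights on. In each group the ganglia were taken 72 h after injury, hence at the clock time of the injury, so the time of injury and the time of dissection cannot be told apart. All 7 samples were injured, and no uninjured ganglia were analysed here. The cells were dissociated with enzymes and passed over an albumin gradient that enriches neurons, and abundance was measured by RNA sequencing in TPM, a share of all transcripts that corrects for transcript length and makes each sample sum to the same total.

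The molecular clock is a feedback loop in which the activators BMAL1 (gene Arntl) and CLOCK bind E-box elements in DNA and switch on their own repressors, among them the PER and CRY proteins. DEC1 (Bhlhe40) and DEC2 (Bhlhe41) are basic helix-loop-helix proteins that bind the same E-boxes and repress transcription there, and their own promoters are E-box targets, which closes a further loop. Both genes are also known to be induced by hypoxia and by other stimuli, and both are expressed in several immune cell types besides neurons.

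The promoter of Bhlhe41 is shown because its window holds the letters of an E-box. That of Bhlhe40 had no entry in the promoter set used and was not analysed here, so whether it holds an E-box is not shown. The Bhlhe41 window is RefSeq sequence of the mouse build GRCm38.p6, chr6:145865371-145865670 on the minus strand. It covers 300 bases around the annotated start, with the E-box CACGTG in capitals. The deposited values refer to GRCm39 per the submitters' processing notes, so these coordinates are not those of the table.
Bhlhe41: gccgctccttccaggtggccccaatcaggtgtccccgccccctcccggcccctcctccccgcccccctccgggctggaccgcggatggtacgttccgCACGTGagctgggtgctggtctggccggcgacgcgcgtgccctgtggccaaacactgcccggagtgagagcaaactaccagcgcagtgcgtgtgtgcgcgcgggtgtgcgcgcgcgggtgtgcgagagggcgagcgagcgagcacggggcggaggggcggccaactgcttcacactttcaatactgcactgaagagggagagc
The window held the palindrome CACGTG 1 time, starting at base 98. CACGTG occurred in 7.15% of the 32851 mouse promoter windows of this length. The core of hypoxia response elements, ACGTG searched on both strands, lies within CACGTG and was found 0 times elsewhere in the window. It occurred in 19.6% of all windows.

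Among the other clock repressors, 3 of the 7 genes with a promoter entry held CACGTG, against 8.09% of all 27025 genes with an entry. These were Per1, which held it in 1 of its 2 windows, Cry1 and Ciart. Their E-boxes with neighbouring bases are set beside the element of Bhlhe41 for comparison, from the same RefSeq build. They lie at chr11:69098771-69098800 (plus strand), chr10:85185097-85185126 (minus strand) and, for the closely spaced pair among the 3 CACGTG of Ciart, chr3:95882255-95882298 (minus strand), with CACGTG in capitals.
Per1: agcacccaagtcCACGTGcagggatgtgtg
Cry1: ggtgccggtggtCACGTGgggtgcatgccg
Ciart: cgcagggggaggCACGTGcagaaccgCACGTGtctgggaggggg
A match gives the letters in the window and is not evidence of binding.

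All libraries are labelled male, but the Y-linked gene Ddx3y was listed at 0 in ZT20 replicates 3 and 4 and was at 11.7 to 24.2 TPM in the other 5 samples. Xist, transcribed from the inactive X chromosome, reached 1.08, 2.21 and 2.30 TPM in replicates 2, 3 and 4 of ZT20 and no more than 0.00467 TPM elsewhere. Results are therefore also given without ZT20 replicates 3 and 4. Library identifiers were numbers in all ZT20 samples and letters in all ZT8 samples, so any batch behind them and the group cannot be told apart. ZT8 replicate 2 had the fewest genes above 0 TPM, 18297 against 22541 to 25238 in the other samples. Markers of sensory neurons were abundant in every sample, with 10 of 10 above 0 TPM throughout and a summed level of 17375 to 22365 TPM at ZT20 and 13496 to 20827 TPM at ZT8. Of these 10 markers 2 passed as higher at ZT20 by limma, Nefh (620 to 672 TPM against 194 to 360 TPM) and Scn9a (76.3 to 98.4 TPM against 37.1 to 53.4 TPM). Of all genes tested, 12.8% passed as higher. The median log2 difference of the 10 markers was 0.30, against 0.23 over all genes tested, and 8 of the 10 were positive.

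Bhlhe41 was present at higher levels in every ZT20 sample than in any ZT8 sample. At ZT20 it was at 23.8, 47.3, 24.3 and 25.5 TPM in replicates 1 to 4, and at ZT8 at 4.93, 11.8 and 4.95 TPM in replicates 1 to 3. Replicate 2 was the highest sample of its group at both times, and the groups did not overlap. Mean abundance was 30.2 ± 11.4 TPM at ZT20 (SD, n = 4) against 7.22 ± 3.95 TPM at ZT8 (SD, n = 3), 4.19 times as high, and the lowest ZT20 sample was 2.02 times the highest ZT8 sample. On the log2(TPM + 1) scale, on which the change of low genes is understated, the difference was 1.97 with a standard error of 0.34. Of the 14800 genes tested (mean of at least 1 TPM), 0.507% had a difference at least as large, while 24.5% lay wholly higher and 8.72% wholly lower at ZT20. When 1 sample was left out, the share at least as large ran from 0.378% (without ZT8 replicate 2) to 1.54% (without ZT8 replicate 1). It was 2.56% with a pseudocount of 0.1 and 1.24% after a correction for transcript length and GC content. Bhlhe41 was among the genes that chose this description, so these shares place it and do not test it.

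Bhlhe40 was also higher at ZT20 on average, by less and with overlap. It measured 19.6, 17.4, 28.2 and 25.6 TPM in replicates 1 to 4 of ZT20 and 18.2, 8.96 and 10.6 TPM in replicates 1 to 3 of ZT8. ZT8 replicate 1 lay above ZT20 replicate 2, and the other ZT8 samples lay below every ZT20 sample. Mean abundance was 22.7 ± 5.02 TPM at ZT20 (SD, n = 4) against 12.6 ± 4.95 TPM at ZT8 (SD, n = 3), 1.80 times as high. The log2 difference was 0.84 with a standard error of 0.27, and 15.1% of tested genes had a difference at least as large. That share ran from 10.7% (without ZT8 replicate 1) to 21.8% (without ZT8 replicate 3) when 1 sample was left out. In bulk samples more cells of a type that expresses a gene and more of its RNA per cell cannot be told apart.

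**Figure D1:**
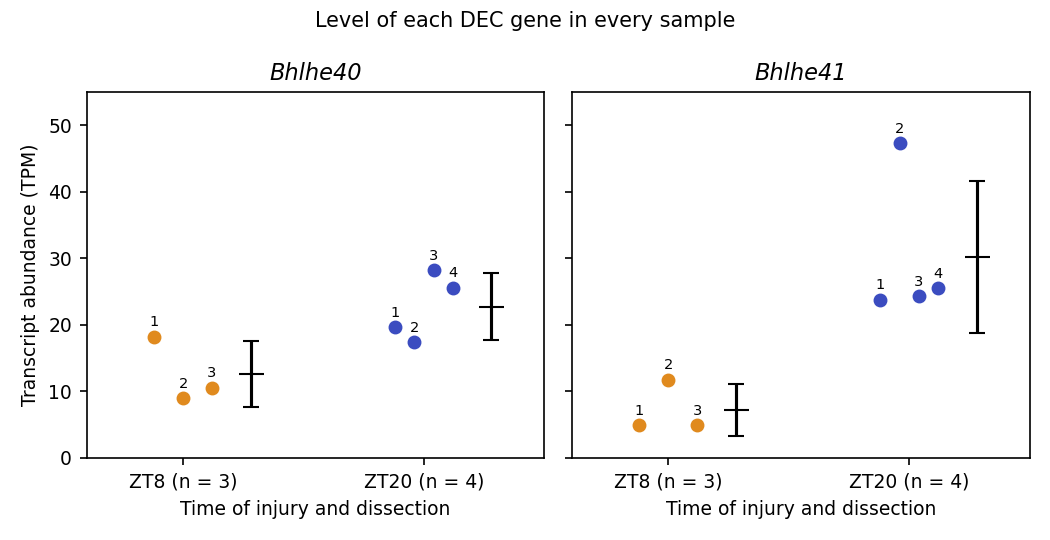
Abundance of Bhlhe40 (left) and Bhlhe41 (right) in TPM, with 1 point per sample labelled by its replicate number, ZT8 in orange and ZT20 in blue, and black bars for the mean ± SD. For Bhlhe41 all ZT20 samples (23.8 to 47.3 TPM) lie above all ZT8 samples (4.93 to 11.8 TPM), while for Bhlhe40 ZT8 replicate 1 (18.2 TPM) lies within the ZT20 range.

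Most genes had slightly higher values at ZT20, with a median log2 difference of 0.23 over the genes tested, and 66.4% of them were above 0. Relative to that median the differences were 0.60 for Bhlhe40 and 1.73 for Bhlhe41. Median-ratio scaling brought the median of all genes to 0.015, and quantile normalization brought it to 0.0046. Under median-ratio scaling Bhlhe40 stood 0.59 and Bhlhe41 1.72 above the median, and under quantile normalization they stood 0.55 and 1.65 above it.

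The balance between the repressors differed between samples of 1 group as well as between the groups. Bhlhe41 made up 54.7%, 73.1%, 46.3% and 49.98% of the summed TPM of both genes in ZT20 replicates 1 to 4. It made up 21.3%, 56.8% and 31.9% in ZT8 replicates 1 to 3. The genes were therefore near equal in 3 of the 4 ZT20 samples, Bhlhe41 was the lesser transcript in ZT8 replicates 1 and 3, and the range at ZT8 reached into that at ZT20. The log2 ratio of Bhlhe41 to Bhlhe40, which no scaling by 1 factor per sample can change, averaged 0.38 in the 4 samples of ZT20 with an SD of 0.74. In the 3 samples of ZT8 it averaged −0.86 with an SD of 1.16, which is 1.24 lower, within overlapping ranges. This gap was 0.73 without ZT8 replicate 1 and 1.87 without ZT8 replicate 2, and 1.72 without ZT20 replicates 3 and 4. The summed level of both genes was 43.4 to 64.7 TPM at ZT20 and 15.5 to 23.2 TPM at ZT8, without overlap.

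Within each group the genes ran in opposite order at replicate 2. At ZT20 replicate 2 had the highest Bhlhe41 and the lowest Bhlhe40, and the same held for replicate 2 at ZT8. The shared number does not pair these samples. Of the 9727 named genes averaging 5 TPM or more, 12.4% had replicate 2 as the highest sample in both groups and 28.5% had it as the lowest in both.

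**Figure D2:**
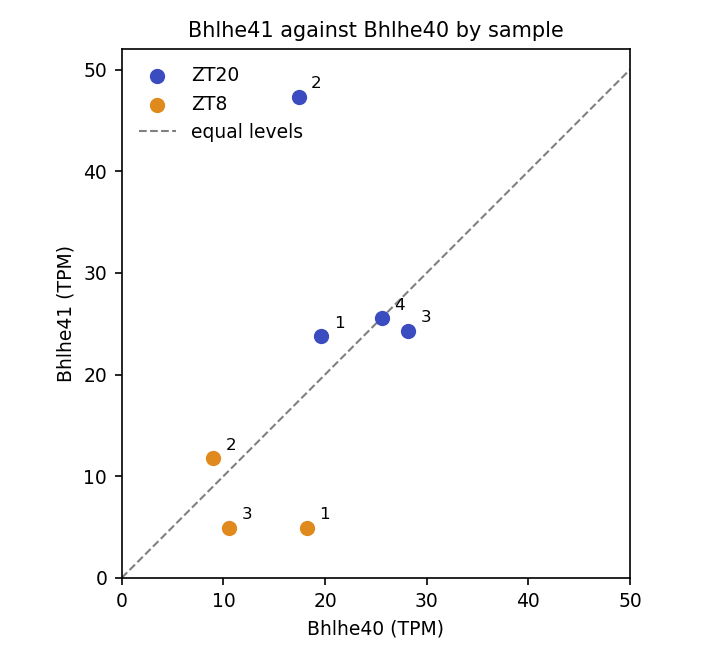
Bhlhe41 against Bhlhe40 in TPM, with 1 point per sample labelled by its replicate number and a dashed line where the levels are equal. Replicate 2 of each group lies above the line (Bhlhe41 at 73.1% and 56.8% of the sum), ZT8 replicates 1 and 3 lie below it (21.3% and 31.9%), and ZT20 replicate 4 lies on it (49.98%).

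The models of Bhlhe41 differ from those of Bhlhe40 in length and in a repeated stretch, and both features moved with the group difference across genes. The longest annotated transcript was 6133 nt for Bhlhe41 and 3113 nt for Bhlhe40 in GENCODE M21. Genes of a length like that of Bhlhe41 (5001 to 6488 nt, 1470 genes) had a median log2 difference of 0.56, and 0.408% of them had a difference at least that of Bhlhe41. Genes of a length like that of Bhlhe40 (3109 to 3647 nt, 1476 genes) had a median of 0.24, and 10.03% reached the difference of Bhlhe40. After each sample's trend with transcript length and GC content was removed, the difference was 1.40 with a standard error of 0.36 for Bhlhe41 and 0.64 with a standard error of 0.22 for Bhlhe40.

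The 3′ untranslated region of Bhlhe41 holds an uninterrupted run of 39 T. Among the other tested genes, 79 had a run of at least 31 A or T in a transcript model, and their median log2 difference was 0.59, against 0.21 for the 13744 genes whose longest run was under 20. After the length and GC correction these medians were 0.24 and −0.010. Of the 79 genes 29 passed the test as higher (36.7%, against 12.8% of all tested genes), and replicate 2 was the highest sample in both groups for 23 of them (29.1%). That share was 25.5% for genes with runs of 20 to 30 and 11.6% for genes with runs under 20. The longest A or T run of Bhlhe40 was 15 bases. Reads that fall wholly within such a run could come from any of these genes, and the part of the run in the level of Bhlhe41 was not tested. This grouping was made after the values were seen.

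Sequence shared with other genes was also counted. No stretch of 31 bases was shared between Bhlhe40 and Bhlhe41 transcripts (0 of 4669 in Bhlhe40). Shared with other genes were 1.97% of these stretches in Bhlhe40 and 17.7% in Bhlhe41, mostly with the overlapping gene. Each gene overlaps a gene annotated on the opposite strand, and the sources used here do not state how strand was handled. The partner of Bhlhe40, 0610040F04Rik, was at 0 to 0.552 TPM and that of Bhlhe41, Gm43909, at 0 to 0.155 TPM in the 7 samples.

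The genes whose profiles over the 7 samples were nearest to that of Bhlhe41, by root mean square distance of centred log2(TPM + 1) among 9726 candidates, were Zfp780b (distance 0.19), Paip1 (0.19), Klf13 (0.19), Marf1 (0.20) and Prune2 (0.20). Paip1 encodes a partner of poly(A)-binding protein, Klf13 a Krüppel-like transcription factor and Marf1 an RNA-binding regulator of oocyte meiosis. In each of these 5 genes replicate 2 was the highest sample of both groups, and their log2 differences ran from 1.75 to 2.22. The choice by likeness to Bhlhe41 in the same samples selects for both features. Klf13, for example, measured 74.1, 124, 64.3 and 65.0 TPM in replicates 1 to 4 of ZT20 and 21.3, 34.8 and 15.2 TPM in replicates 1 to 3 of ZT8. Paip1, Marf1 and Prune2 have runs of 33, 39 and 37 A or T, Klf13 has one of 30 and Zfp780b one of 17, whereas 0.565% of the candidates have a run of at least 31. Of the 74 other tested genes with a difference at least that of Bhlhe41, 3 have such a run. Over all tested genes with such a run, the median deviation from the gene mean on the log2 scale was 0.22, 0.33, 0.16 and 0.27 in replicates 1 to 4 of ZT20 and −0.31, −0.33 and −0.39 in replicates 1 to 3 of ZT8. For Bhlhe41 it was 0.57, 1.53, 0.60 and 0.67 at ZT20 and −1.49, −0.39 and −1.49 at ZT8. On these values replicate 2 was highest in both at ZT20, and at ZT8 in Bhlhe41 but not in the run genes. Over all tested genes the median deviation was 0.086, 0.031, 0.15 and 0.15 at ZT20 and −0.031, −0.22 and −0.092 at ZT8, in order of replicate. Relative to those medians the run genes stood highest in replicate 2 of both groups. The cause was not tested.

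The nearest profiles to Bhlhe40 belonged to Coro2a (distance 0.098), which encodes a coronin, Ece1 (0.11), which encodes endothelin-converting enzyme, Fam214b (0.11), Washc4 (0.12), a subunit of the WASH complex on endosomes, and Ndc1 (0.12), a nuclear pore protein. Their log2 differences ran from 0.70 to 0.90. Coro2a measured 65.5, 56.5, 82.2 and 81.4 TPM in replicates 1 to 4 of ZT20 and 51.1, 32.5 and 34.0 TPM in replicates 1 to 3 of ZT8. All 5 had their lowest value in replicate 2 in both groups, as Bhlhe40 had. The choice by likeness to Bhlhe40 in the same samples selects for this order and for the size of the difference. None of these 5 has a run of at least 31 A or T (0 of 5). In the order of likeness to Bhlhe40 its paralog Bhlhe41 came at place 9150 of 9726, with a distance of 0.92 against a median of 0.51 over the candidates. In the order of likeness to Bhlhe41, Bhlhe40 came at place 2228 of 9726, where the same distance lay below the median of 1.07.

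TPM allows levels to be compared between genes. The parts of transcript length and of the T run of Bhlhe41 in this comparison were not tested. Of 23 clock genes in the table, ordered by mean TPM, Bhlhe41 held place 2 and Bhlhe40 place 3 at ZT20, after Cry2 (66.1 TPM, SD 14.01, n = 4). The range of Cry2 (46.03 to 78.3 TPM) overlapped that of Bhlhe41, which was above Cry2 in ZT20 replicate 2, so the order of these genes is within the spread of samples. The ranges of Bhlhe41 (23.8 to 47.3 TPM) and Bhlhe40 (17.4 to 28.2 TPM) overlapped there, so their order is within the spread of samples, and that of Bhlhe40 also overlapped Usp2 (12.8 to 19.1 TPM) and Tef (10.4 to 17.5 TPM). At ZT8 Bhlhe40 held place 4 and Bhlhe41 place 10. Dbp, Nr1d2, Usp2, Ciart, Nr1d1, Tef, Cry1, Bhlhe41 and Rora had ranges that overlapped that of Bhlhe40 at ZT8, between 2.38 and 19.8 TPM, so their order is not resolved. Among all tested genes the mean of Bhlhe41 stood at percentile 67.0 at ZT20 and 42.1 at ZT8, and that of Bhlhe40 at 61.1 and 52.8.

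**Figure D3:**
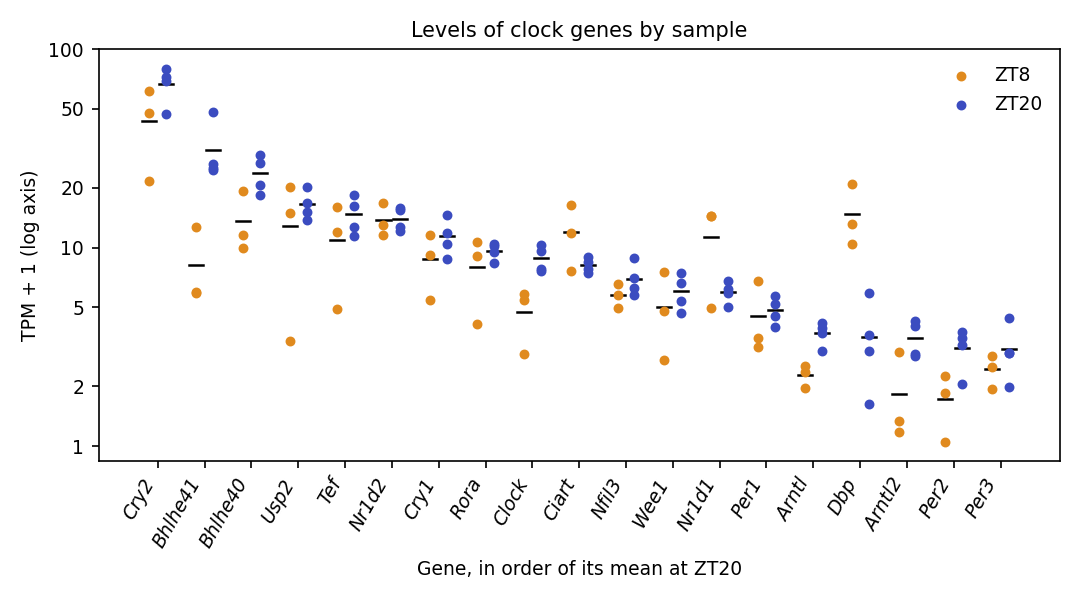
TPM + 1 on a log axis for the DEC genes and other clock genes, with 1 point per sample (ZT8 orange, ZT20 blue) and a black line at the mean TPM + 1 of each group, ordered by the ZT20 mean. Bhlhe41 (30.2 TPM) and Bhlhe40 (22.7 TPM) follow Cry2 (66.1 TPM) at ZT20, and Dbp has the clearest shift towards ZT8 (2.53 and 13.8 TPM at ZT20 and ZT8).

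The other genes of the loop were compared by limma with Benjamini-Hochberg adjustment over all 14800 genes. In that fit 16.4% of genes passed an adjusted p-value of 0.05, 12.8% as higher and 3.61% as lower at ZT20, and 5122 of 14800 had an unadjusted p-value under 0.05. Of the genes that passed, 78.1% were higher at ZT20, against 46.4% with median-ratio scaling and 41.6% with length and GC corrected. Every count of passing genes below rests on the full set of libraries: without ZT20 replicates 3 and 4, 0 of 14687 genes passed by limma, and 2378 had an unadjusted p-value under 0.05. Of the 59 tested genes of the 10 lists 11 passed, against 0 without a filter on low values and 1 with a marker score as covariate. The lists were drawn up with earlier results of these data known, and are described by their counts and medians.

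Of the activators that DEC proteins compete with, 3 of 4 were tested and 0 passed, with a median log2 difference of 0.95. In other fits 2 passed without ZT8 replicate 2 or with array weights, and 1 passed without ZT8 replicate 1, without the intensity trend or with the marker score. The median was 0.63 without ZT8 replicate 3 and 0.36 with length and GC corrected, where 0 passed. Arntl measured 2.02, 2.71, 3.19 and 2.91 TPM in replicates 1 to 4 of ZT20 and 1.36, 1.55 and 0.953 TPM in replicates 1 to 3 of ZT8. Clock was at 6.78, 6.63, 8.59 and 9.35 TPM and at 4.44, 4.87 and 1.92 TPM. The groups did not overlap for either gene. The limma adjusted p-values were 0.0809 for Arntl and 0.0545 for Clock. Arntl2, a paralog of Arntl, had a difference of 1.05 with an adjusted p-value of 0.0855 and overlapping groups.

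The 8 other clock repressors were all tested and 0 passed by limma, with 1 at an unadjusted p-value under 0.05. Their median log2 difference was 0.24, against 0.23 over all genes. It was −0.069 under quantile normalization and −0.31 with length and GC corrected, where the medians of all genes were 0.0046 and −0.0034. Per2 measured 2.22, 1.04, 2.50 and 2.77 TPM in replicates 1 to 4 of ZT20 and 1.26, 0.0498 and 0.844 TPM in replicates 1 to 3 of ZT8, a difference of 0.90 (limma adjusted p = 0.114). When 1 sample was left out, the difference of Per2 ran from 0.58 to 1.13. Nr1d1, which encodes REV-ERBα, a repressor of Arntl, was at 4.94, 3.996, 5.83 and 5.16 TPM and at 13.5, 3.96 and 13.4 TPM, so ZT8 replicate 2 stood with the ZT20 samples (difference −0.77, limma adjusted p = 0.187). Without ZT8 replicate 2 the difference of Nr1d1 was −1.28 (limma adjusted p = 0.00536), and 2 of the 8 repressors passed as lower, as they did in number with array weights. Without ZT8 replicate 1 it was −0.51. Cry1 differed by 0.42 and Per1 by 0.18 (limma adjusted p = 0.334 and 0.700). The difference of Cry1 was 0.12 without ZT8 replicate 2 and 0.66 without ZT8 replicate 1, and the sign of Per1 turned negative under both other scalings and after the length and GC correction. Whether Bhlhe41 differed more than these repressors was not tested.

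Dbp, an E-box driven output factor that DEC2 is known to repress, fell at ZT20. Its promoter window held CACGTG 0 times, while each window of Tef, another factor of the list, held it 1 time. Dbp measured 0.624, 4.88, 2.61 and 1.998 TPM in replicates 1 to 4 of ZT20 and 9.43, 19.8 and 12.1 TPM in replicates 1 to 3 of ZT8, without overlap. Its log2 difference was −2.15 (SE 0.43, limma adjusted p = 0.0154). Without ZT20 replicate 4 the adjusted p was 0.0503, and over the other fits that left out 1 sample it was at least 0.0162 and below the threshold. Dbp also did not pass with the marker score (−1.62, limma adjusted p = 0.134) or without a filter (limma adjusted p = 0.0514). Dbp passed alone among the 4 tested factors of its list, and the 3 others, Tef, Usp2 and Wee1, had positive differences of 0.37 to 0.70 with limma adjusted p-values of 0.332 to 0.490. Usp2 changed sign without ZT8 replicate 2 (−0.092). The median of the 4 factors was 0.46, and 0.12 with length and GC corrected. It was −0.015 without ZT8 replicate 2, 0.82 without ZT8 replicate 3 and −0.17 with the marker score. Of the ROR and NFIL3 limb, 3 of 4 genes were tested and 0 passed by limma (0 at an unadjusted p-value under 0.05). Nfil3 differed by 0.27 (limma adjusted p = 0.423) and by −0.061 under quantile normalization.

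Of the HES and HEY genes, the closest relatives of the DEC genes among basic helix-loop-helix repressors, 6 of 10 were tested. Some of these genes, but not all, are targets of Notch signalling. None of the 6 had a positive difference (0 of 6), their median was −0.38, and 2 passed as lower at ZT20. Hes6 measured 62.5, 67.0, 72.9 and 66.2 TPM in replicates 1 to 4 of ZT20 and 87.4, 87.9 and 91.4 TPM in replicates 1 to 3 of ZT8, a log2 difference of −0.40 (limma adjusted p = 0.0406). Hey2 was at 7.01, 7.00, 8.02 and 9.90 TPM and at 13.7, 16.8 and 11.5 TPM, a difference of −0.74 (limma adjusted p = 0.0408). Neither group pair overlapped. Over the fits that left out 1 sample the adjusted p ran from 0.0360 to 0.113 for Hes6, which passed only without ZT8 replicate 2, and from 0.0484 to 0.109 for Hey2, which passed only without ZT8 replicate 3. With the marker score and without a filter 0 of the 6 passed. Markers of satellite glia, cells in which Notch targets are known to be active, summed to 6958 to 8431 TPM at ZT20 and 11757 to 14450 TPM at ZT8, most of it Apoe (6261 to 7615 TPM and 10623 to 13557 TPM). Of these 5 markers Apoe and Fabp7 passed as lower, Glul did not pass (−0.42), and Kcnj10 (0.21) and Cdh19 (0.38) had positive differences that did not pass. The part of these cells in the HES and HEY values was not tested.

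Among 8 tested partners and modifiers of DEC proteins, 1 passed as higher and 1 as lower, with a median of 0.33. With length and GC corrected 0 passed and the median was 0.0076, and with median-ratio scaling 0 passed as higher and the median was 0.12. Stat3, an injury-responsive transcription factor that binds DEC1, measured 369, 363, 433 and 481 TPM in replicates 1 to 4 of ZT20 and 336, 237 and 244 TPM in replicates 1 to 3 of ZT8 (difference 0.60, limma adjusted p = 0.0376). Hdac1, a deacetylase recruited by DEC proteins, was at 34.6, 27.8, 29.5 and 28.3 TPM and at 40.1, 47.0 and 41.7 TPM (difference −0.50, limma adjusted p = 0.0414). Both sets of groups were apart. Hdac1 passed in 0 of the 7 fits that left out 1 sample (limma adjusted p from 0.0540 to 0.120), and Stat3 in 2, without ZT20 replicate 2 and without ZT8 replicate 1 (0.0224 to 0.107). Ehmt2, a histone methyltransferase, had the largest positive difference of the list, 0.83, and did not pass (limma adjusted p = 0.178). It was at 2.81 TPM in ZT8 replicate 2 and at 11.8 TPM in the other ZT8 samples, and without that sample the difference was 0.25.

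Genes known to be repressed by DEC proteins outside the clock were mostly too low to test in this tissue. Hcrt, the orexin precursor repressed by DEC2 in the hypothalamus, was listed at 0 in all 7 samples. Il10 was at 0 to 0.317 TPM and Vegfa at 0 to 1.25 TPM. Srebf1 and Pparg were tested and did not pass (limma adjusted p = 0.498 and 0.423), with differences of 0.27 and −0.39. When 1 sample was left out, these ran from 0.060 to 0.51 for Srebf1 and from −0.67 to −0.066 for Pparg.

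The hypoxia pathway, an inducer of both DEC genes, was followed through its factors and its targets. Of 6 factors, 3 passed as higher at ZT20 and 0 as lower, with a median difference of 0.95. The median was 0.57 without ZT8 replicate 2 and 1.17 without ZT8 replicate 1. Hif1a, the oxygen-regulated subunit of HIF-1, measured 29.96, 26.7, 35.8 and 35.3 TPM in replicates 1 to 4 of ZT20 and 19.4, 8.15 and 16.4 TPM in replicates 1 to 3 of ZT8 (difference 1.14, limma adjusted p = 0.0267). Epas1, which encodes HIF-2α, was at 23.5, 18.1, 24.2 and 35.0 TPM and at 15.2, 9.63 and 14.1 TPM (0.89, limma adjusted p = 0.0410). Egln1, the prolyl hydroxylase that marks HIF proteins for degradation, was at 5.51, 8.16, 7.19 and 6.65 TPM and at 4.14, 1.27 and 3.23 TPM (1.09, limma adjusted p = 0.0436). In these 3 genes ZT8 replicate 2 was the lowest sample and the groups did not overlap. Hif1a did not pass without ZT20 replicate 1, 3 or 4 (limma adjusted p up to 0.0815 over the fits that left out 1 sample), Epas1 passed only without ZT20 replicate 2 or ZT8 replicate 1 (up to 0.104), and Egln1 only without ZT8 replicate 1 or 2 (up to 0.116). After the length and GC correction 0 of the 6 passed and their median was 0.48, with differences of 0.74, 0.35 and 0.75 for Hif1a, Epas1 and Egln1. Vhl, which encodes the ubiquitin ligase subunit that binds hydroxylated HIF, had the only negative difference (−0.096, limma adjusted p = 0.686).

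Of 12 HIF target genes, among them glycolytic enzymes, 10 were tested and 0 passed by limma, with 5 at an unadjusted p-value under 0.05 and a median of 0.30. P4ha1, a collagen prolyl hydroxylase, had the largest positive difference (0.90, limma adjusted p = 0.0817), which was 0.49 without ZT8 replicate 2 and passed without ZT8 replicate 1 (1.17, limma adjusted p = 0.0440). Pgk1, a glycolytic enzyme, had the largest negative difference (−0.34, limma adjusted p = 0.0558). Pgk1 was at 380 to 447 TPM at ZT20 and at 491 to 529 TPM at ZT8. Of the 10 targets 2 passed as higher without ZT8 replicate 1, 3 passed with array weights, and 1 passed as lower with median-ratio scaling or the filter at 5 TPM.

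Genes induced by neuronal activity and cAMP, another known stimulus of Bhlhe40, were also listed. Of 9 tested genes 3 passed as lower at ZT20 and 0 as higher, and the median was −0.43. The median was −0.27 without ZT8 replicate 3 or ZT20 replicate 2, −0.57 without ZT20 replicate 4 and −0.67 with median-ratio scaling. Junb measured 294, 235, 309 and 363 TPM in replicates 1 to 4 of ZT20 and 585, 469 and 372 TPM in replicates 1 to 3 of ZT8 (difference −0.65, limma adjusted p = 0.0485). Ier2 was at 82.7 to 115 TPM at ZT20 and at 130 to 150 TPM at ZT8 (−0.55, limma adjusted p = 0.0343), and Crem, a cAMP-responsive transcription factor, at 24.8 to 30.7 TPM and 34.6 to 54.3 TPM (−0.62, limma adjusted p = 0.0459). The groups did not overlap in these 3 genes. Arc had the largest positive difference of the list (0.47, limma adjusted p = 0.469), which became −0.10 without ZT8 replicate 2. Junb passed in 1 of the 7 fits that left out a sample, without ZT8 replicate 3 (limma adjusted p from 0.0373 to 0.115). Crem passed likewise in 1, without ZT8 replicate 3 (0.0372 to 0.126), and Ier2 in 2, without ZT20 replicate 4 and without ZT8 replicate 2 (0.0392 to 0.107).

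**Figure D4:**
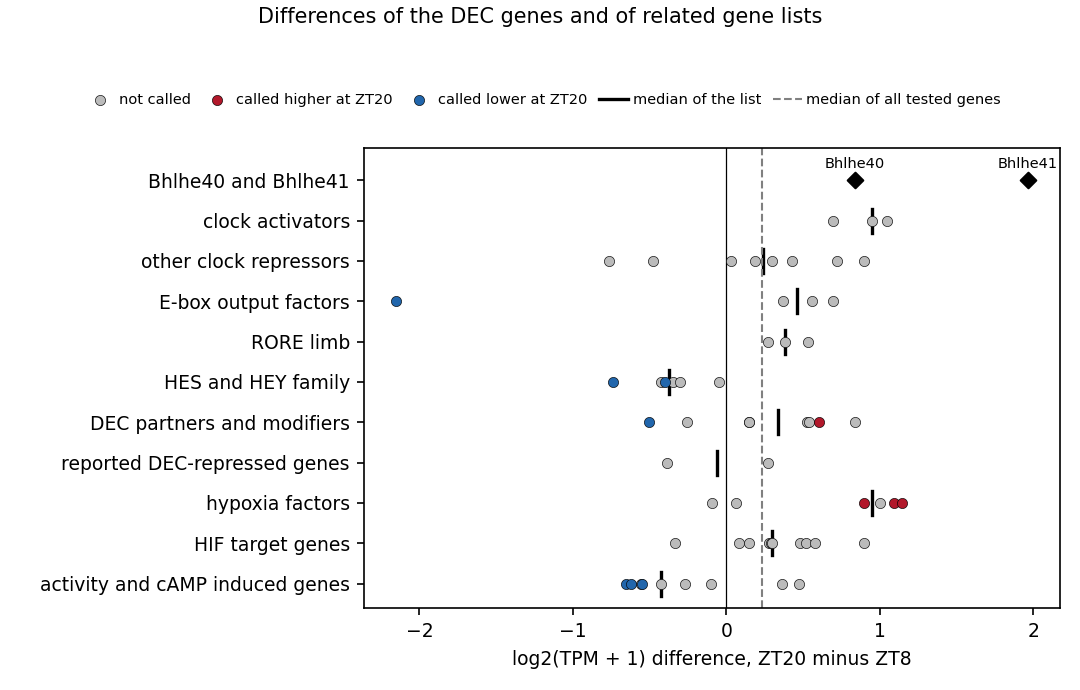
Log2(TPM + 1) differences, ZT20 minus ZT8, of the DEC genes (diamonds) and of the tested genes of 10 related lists (points, coloured by the limma call at an adjusted p-value of 0.05), with list medians as black ticks and the median of all tested genes (0.23) as a dashed line. Bhlhe41 (1.97) lies to the right of every listed gene, Dbp (−2.15) lies farthest to the left, and the 3 genes that passed among the hypoxia factors lie between 0.89 and 1.14.

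Cells other than neurons that can express DEC genes were followed by their markers. Macrophage markers (8 of 8 above 0 TPM in all samples) summed to 104 to 153 TPM at ZT20 and 158 to 360 TPM at ZT8, with 1 gene passing as higher and 1 as lower. At ZT8 the sum was 360, 163 and 158 TPM in replicates 1 to 3, and most of it in every sample was C1qa and C1qb. Of the 8 markers 2 had positive differences, among them Mrc1 (1.79 to 4.76 TPM at ZT20 and 0.0805 to 0.732 TPM at ZT8). Lymphocyte and plasma cell markers summed to 6.38 to 193 TPM at ZT20 and 216 to 626 TPM at ZT8. Most of the latter sum was Jchain, an immunoglobulin joining chain (4.18 to 176 TPM at ZT20 and 195 to 560 TPM at ZT8), and 1 of its 4 tested genes passed as lower. Erythrocyte markers summed to 6734 TPM and fibroblast markers to 184 TPM in ZT8 replicate 2, against 523 to 3182 TPM and 68.0 to 94.8 TPM in the other 6 samples. Endothelial markers summed to 0.422 to 4.32 TPM over all samples. With the score of neuronal minus non-neuronal markers as a covariate, the log2 differences were 0.89 for Bhlhe40 and 2.49 for Bhlhe41. The part of cell composition in the levels of the DEC genes was not tested.

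The differences of both DEC genes stayed above 0 without the libraries whose sex-linked transcripts go against their label. Without ZT20 replicates 3 and 4 the log2 difference was 0.58 with a standard error of 0.34 for Bhlhe40 and 2.17 with a standard error of 0.46 for Bhlhe41. With ZT20 replicate 1 as the only ZT20 sample they were 0.66 and 1.69. Over the fits that left out 1 sample, Bhlhe40 ranged from 0.64 (without ZT8 replicate 2) to 1.12 (without ZT8 replicate 1) and Bhlhe41 from 1.74 (without ZT20 replicate 2) to 2.33 (without ZT8 replicate 2).

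**Figure D5:**
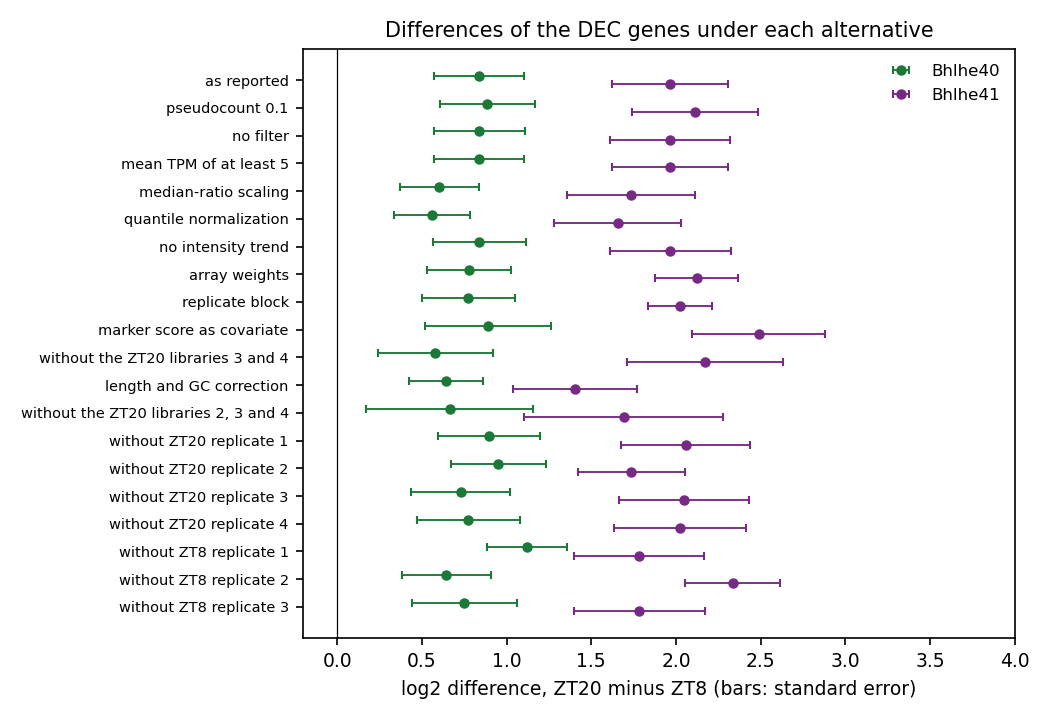
Log2 differences of Bhlhe40 (green) and Bhlhe41 (purple), ZT20 minus ZT8, as reported and under each alternative, with bars for the standard error. Bhlhe41 is lowest after the length and GC correction (1.40) and Bhlhe40 under quantile normalization (0.56), and every value of both genes is above 0.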

How the data were processed

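The authors deposited a table of TPM per gene and sample. Per the submitters' processing notes, the tools were FastQC 0.11.9, Trim Galore 0.6.6, Salmon 1.6.0 and DESeq2 1.34.0 and the build GRCm39. The annotation release and library settings are not given in the sources used here. TPM keeps no sequencing depth, so the counting error of a value is unknown. Column names gave the sample of all 7 columns.

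Values were analysed as log2(TPM + 1). Genes averaging 1 TPM or more were fitted with limma 3.58.1 (lmFit, then eBayes with trend, R 4.3.3) over all 7 samples without covariates, two-sided, with Benjamini-Hochberg adjustment over all of them. The procedure was tested on simulated data. Differences are ZT20 minus ZT8. Nothing in the labels says that samples are separate animals, so p-values measure the spread between these samples. Members, lists and tests were chosen with earlier results of these data known. The text names both DEC genes, each list gene that passed, the largest positive and negative difference of each list, 8 clock genes (1 gene that this rule names is not reported here) and the 5 nearest profiles to each DEC gene (mean of at least 5 TPM). Transcript lengths, runs and overlaps were taken from GENCODE M21, where identifiers matched for 14745 of the 14800 tested genes. Promoters came from RefSeq (GRCm38.p6), where Bhlhe41 had an entry.

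Alternatives were another pseudocount (0.1), other filters, scalings and fits, the replicate block, and leaving out samples. The length and GC correction (loess, span 0.3) and the fit with 1 ZT20 sample were chosen after seeing the data.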

Additional observations from a re-analysis of the deposited data

Results flagged for a closer look

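In ZT20, 3 of 30 gene profiles had 1 sample far from the other 3, meaning that its gap to the nearest of them took more than the 95% critical share of the group's range. Chance gives about 1.5 of 30. Bhlhe41 measured 47.3 TPM in replicate 2 and 23.8 to 25.5 TPM in the rest, and without that sample its log2 difference was 1.74. Srebf1 measured 15.8 TPM in replicate 2 against 25.9 to 27.5 TPM in the rest, and Arc 21.4 TPM in replicate 4 against 11.7 to 12.8 TPM. Such a sample occurred in 1045 of the tested genes, and in 48.1% of them it was replicate 2. The 3 ZT8 samples were not examined in this way.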

How the results depend on the processing

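Both DEC genes kept a positive difference under all 19 alternatives. That of Bhlhe41 moved by more than the replicate spread only after the length and GC correction (1.40), and the ratio of the genes moved by less than its spread under every alternative run, from 0.73 to 1.87 when 1 sample was left out (Bhlhe40 0.64 to 1.12, Bhlhe41 1.74 to 2.33). The number of genes past the threshold, 2433 over all genes and 11 over the 10 lists, was less stable, and the cause was not tested. It was 1178 and 0 without a filter, 3899 and 19 with array weights, 626 and 1 with the marker score, 1296 and 5 with length and GC corrected, and 0 and 0 without ZT20 replicates 3 and 4, where fewer samples entered and 2378 genes (7 listed) had an unadjusted p-value under 0.05. With ZT20 replicate 1 as the only ZT20 sample, assumed to vary like the ZT8 samples, it was 0 and 0, with 1155 and 2 unadjusted. Without the intensity trend 5 listed genes passed. Leaving out 1 sample gave 723 to 3047 genes and 1 to 9 listed genes. Passing genes were 78.1% higher at ZT20 as reported, 46.4% under median-ratio scaling, 55.7% under quantile normalization and 41.6% with length and GC corrected. The replicate numbers are only names: deviations of same-numbered samples correlated at −0.014, 0.15 and 0.083, not every sample correlated best with its own number, and the replicate block gave 1174 genes and 4 listed genes. That fit in effect leaves out ZT20 replicate 4, which has no partner, and without that sample and without the block 855 genes and 2 listed genes passed. Among listed genes that did not pass, Usp2 changed sign with the marker score (−0.31) and without ZT8 replicate 2 (−0.092, with 1.203 the highest when 1 sample was left out), Srebf1 after the length and GC correction (−0.20), Pparg with the marker score (0.17), Arc without ZT8 replicate 2 (−0.10, highest 0.88) and Nfil3 under quantile normalization (−0.061). Per1 changed sign under median-ratio scaling (−0.0083), quantile normalization (−0.13), the marker score (−0.41), the length and GC correction (−0.34) and without ZT8 replicate 2 (−0.026, highest 0.53). With no read counts, the depth behind low values such as those of Per2 and Arntl2 is unknown.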
